A study of Rattus norvegicus with 6 samples.

Results

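The interferon response and antigen presentation genes described here are 36 symbols, and their members are all probe sets annotated with exactly 1 of these symbols. The arrays held 49 such probe sets for 35 of the genes, out of 31042 probe sets that are not Affymetrix controls; Gbp5 was not analysed here. The arrays compare smooth muscle cells cultured from rat aorta (passages 3 to 5): 3 cultures were kept static and 3 were exposed in a flow chamber to laminar fluid shear stress of 14 dyn/cm2, lasting 24 h. All 6 cultures had first been held for 24 h in F-12 HAM with 0.1% bovine serum albumin, ascorbic acid and antibiotics, after growth in 10% fetal calf serum. Each static culture carries the pairing number (1 to 3) of a sheared one, but what a pair shares is not stated, nor is a rat strain. P-values therefore rest on a spread among cultures that could be purely technical, and anything else that set the chamber apart from static culture goes with the groups. No interferon was added per the labels, so the comparison asks how the resting level of this pathway differs under flow.

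Interferons are secreted antiviral cytokines. Type I interferons bind a receptor of Ifnar1 and Ifnar2, whose kinases phosphorylate Stat2; in a complex with Irf9 it acts on the interferon-stimulated response element (ISRE) of target genes. Interferon gamma binds Ifngr1 and Ifngr2 and acts through Jak1 and Jak2 on genes with the gamma-activated sequence (GAS). Both induce antiviral effectors and the machinery that cuts cytosolic proteins to peptides, carries them into the endoplasmic reticulum and loads them on major histocompatibility complex (MHC) class I molecules, which vascular smooth muscle cells, like most nucleated cells, display.

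Sheared cells had lower signals for a subset of these genes and higher signals for a few others. The tetratricopeptide effector Ifit2, the interferon-induced protein Ifi35, the guanylate-binding GTPase Gbp2 and the transcription factor Irf1 fell most, by 1.63 to 2.77 on the log2(signal + 16) scale. Other interferon regulatory factors, Stat2, Jak1, Jak2 and the peptide transporter subunit Tap2 fell less. The type I receptor chain Ifnar1, the MHC class I light chain B2m, Irf5, Irf8, Mx1 and Oasl rose, although Mx1 was tested only through its brighter sheared group. Several of the best known interferon-induced genes, among them Isg15, Ifit1, Ifit3, Oas1a and Usp18, did not pass the test; of these, all but Isg15 had mean signals of at most 21.1 in both groups.

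Signals are MAS5 values, on which each array has a trimmed mean of 100. Changes are sheared minus static on the log2(signal + 16) scale, which understates changes of dim genes, and a change was called at an adjusted p under 0.05 in limma with the pair as a block, adjusted by Benjamini-Hochberg over 21729 probe sets. Probe sets among the dimmest 30% by mean over the 6 arrays were not tested. Of the 49 probe sets 42, of 32 genes, were tested: 19 fell, 9 rose and 14 did not pass. Over all probe sets tested 52.8% changed, 28.5% falling and 24.3% rising, so the background of calls is high. Among the tested interferon and antigen presentation probe sets 66.7% changed, with 45.2% fallen and 21.4% risen. Their median change was -0.21, against -0.067 for all probe sets tested. Taking the brightest probe set for each gene, 15 of 32 genes fell and 6 rose, where 30.2% of all 11248 genes tested fell and 27.9% rose. The risen count was 3 genes without pair 2 and 3 without pair 3. Static and sheared signals did not overlap for 28 of the 42 probe sets, beside 60.0% of all probe sets tested. At least 2-fold falls on the log2 scale were called for 5 probe sets (8.95% of all probe sets). A rise of at least 2-fold was called for Ifnar1 1379298_at (1.14), beside 5.96% of all probe sets. Ifnar1 1375696_at (1.00 after rounding) lay just under 2-fold. Of the 42, 3 passed the filter only through the brighter group (Mx1, Ifih1 and a dim Stat2 probe set) and so had to differ; the counts over tested probe sets are a description for that reason too.

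**Figure D1:**
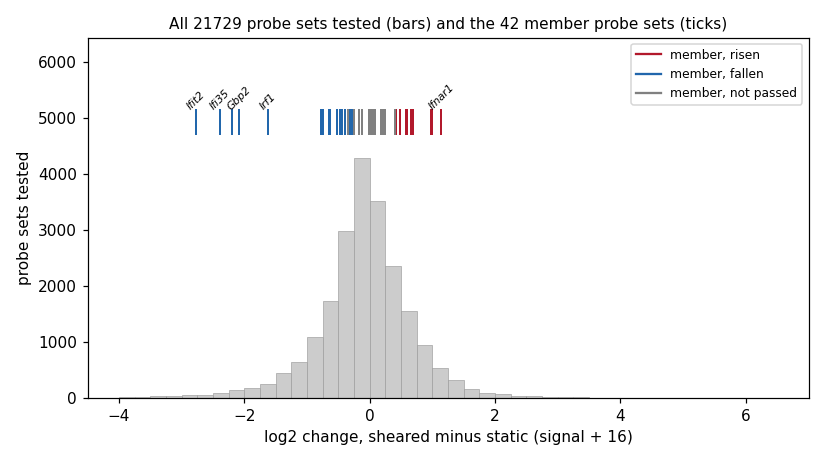
Distribution of the log2 change (sheared minus static, signal + 16) of all 21729 probe sets tested, as bars in steps of 0.25, with the 42 interferon and antigen presentation probe sets as ticks above, coloured by call. Most ticks lie among the bulk of probe sets; both Ifit2 probe sets (-2.77 and -2.20), Ifi35 (-2.39), Gbp2 (-2.08) and Irf1 (-1.63) lie in the left tail, and the rightmost 3 ticks are Ifnar1 probe sets (0.97, 1.00 and 1.14).

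Facts of the arrays that bear on these values are few. Median signals were 21.1 to 22.6 on static and 17.3 to 18.9 on sheared arrays, and arrays of one group correlated more closely (0.98 to 0.993 over probe sets) than static with sheared arrays (0.882 to 0.906). Centring each array on its median moved the median change of all probe sets by 0.168, so changes of that size depend on the scaling; it also turned the split of all calls from 46.1% risen to 62.6% risen, and that of the interferon and antigen presentation probe sets from 9 risen and 19 fallen to 11 and 13. Of the defining smooth muscle markers, Acta2 read 1656.7 to 1970.0 on static and 740.0 to 916.0 on sheared arrays and Tagln 2394.8 to 2961.8 on all arrays, while Des (desmin) stayed at 16.2 to 18.4; the summed signal of 10 smooth muscle markers was 8580 to 9570 on static and 5720 to 5820 on sheared arrays, and that of 10 fibroblast markers was of like size, 6500 to 8850 and 5430 to 8190, so these markers do not single out smooth muscle. Because Cd74, Irf8 and MHC class II genes are typical of leukocytes, leukocyte markers were listed too. Of 18 measured, 14 were under a signal of 16 on every array, with the pan-leukocyte marker Ptprc at 0.6 to 3.0 and Itgam at 0.5 to 1.5. The summed signal of the 18 was 253 to 308 on static and 183 to 226 on sheared arrays (exact permutation p = 0.1, two-sided, the smallest that 3 against 3 allows), most of it from Cd14. Of 6 tested, the macrophage marker Cd68 (10.1 to 25.8 in group means, 0.70, adjusted p = 0.0037) and Coro1a (4.83 to 12.2, 0.44, adjusted p = 0.027, lost without pair 2 or 3) rose and Cd14 fell (-0.68). Coro1a passed the filter only through its brighter sheared group and so had to differ. The part of these markers in the results was not tested. In bulk RNA, fewer cells of a type and less RNA per cell cannot be told apart.

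**Figure D2:**
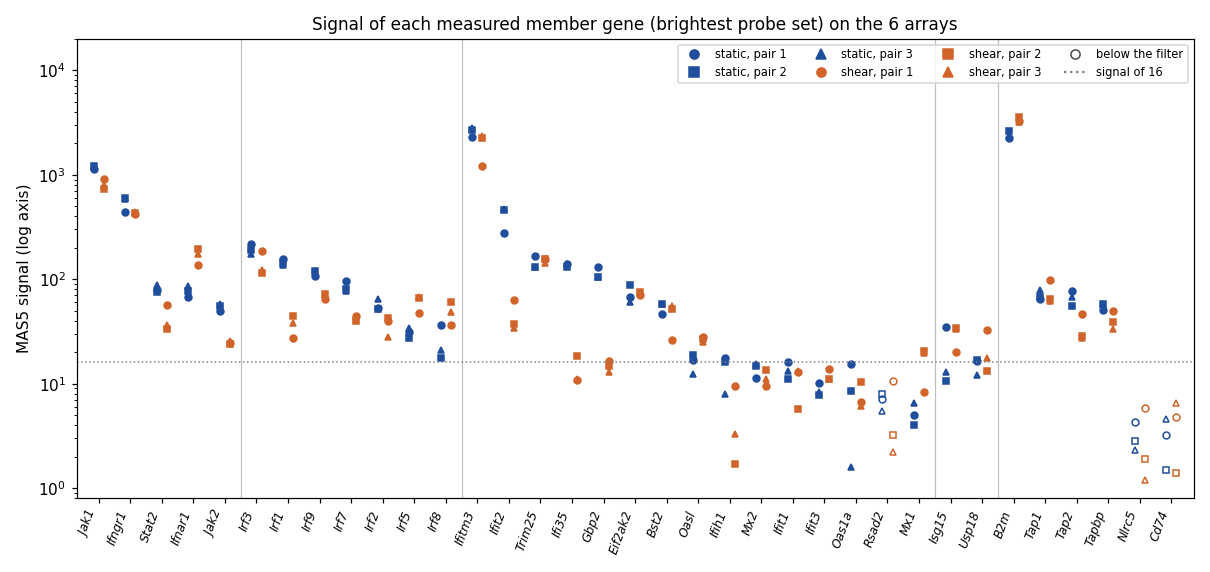
MAS5 signal (log axis) of each of the 35 genes on every array, by its brightest probe set; genes are grouped by role, from receptors and kinases at the left to antigen presentation at the right. Blue stands for static and orange for sheared, circles, squares and triangles for pairs 1, 2 and 3, and open symbols for the 3 genes below the filter. Ifit2, Ifi35, Gbp2 and Irf1 separate widely, whereas genes near or under a signal of 16 (dotted) mostly overlap.

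Promoters are shown first for 7 genes on which the results turn: the strong fallers Irf1, Gbp2 and Ifi35, the fallen transporter subunit Tap2, the risen receptor Ifnar1, and Ifit3 and Bst2, which did not pass. Each is the 250 bases before the RefSeq gene start, from RefSeq (rat assembly GRCr8), 5′ to 3′ on the gene's strand, with no part of an annotated gene in it. Capitals mark matches to the ISRE core, spelled GAAA, then any 2 bases, then GAAA and searched on both strands, or to GAS, spelled TTC, then any 3 bases, then GAA, which reads the same on both strands.
Irf1, chr10:38417685-38417934, plus strand: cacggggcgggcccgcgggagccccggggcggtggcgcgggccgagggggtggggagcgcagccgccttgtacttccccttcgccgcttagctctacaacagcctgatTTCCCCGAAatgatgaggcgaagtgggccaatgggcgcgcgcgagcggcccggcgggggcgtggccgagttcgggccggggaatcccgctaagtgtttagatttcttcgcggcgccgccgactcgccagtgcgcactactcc
Gbp2, chr2:234005477-234005726, plus strand: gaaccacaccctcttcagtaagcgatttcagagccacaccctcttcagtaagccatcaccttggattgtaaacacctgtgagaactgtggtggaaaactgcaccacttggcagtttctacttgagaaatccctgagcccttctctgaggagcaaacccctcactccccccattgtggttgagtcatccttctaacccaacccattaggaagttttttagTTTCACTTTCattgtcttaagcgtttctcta
Ifi35, chr10:86881020-86881269, plus strand: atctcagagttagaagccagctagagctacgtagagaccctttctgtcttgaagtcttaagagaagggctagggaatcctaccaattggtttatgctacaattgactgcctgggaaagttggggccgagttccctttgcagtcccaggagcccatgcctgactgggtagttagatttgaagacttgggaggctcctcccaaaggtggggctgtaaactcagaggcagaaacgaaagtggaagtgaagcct
Tap2, chr20:4652297-4652546, minus strand: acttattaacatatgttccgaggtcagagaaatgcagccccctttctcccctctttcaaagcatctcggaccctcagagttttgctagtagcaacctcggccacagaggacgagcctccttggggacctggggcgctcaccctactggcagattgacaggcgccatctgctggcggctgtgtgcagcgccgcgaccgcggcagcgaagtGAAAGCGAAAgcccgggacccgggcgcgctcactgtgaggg
Ifnar1, chr11:44211519-44211768, plus strand: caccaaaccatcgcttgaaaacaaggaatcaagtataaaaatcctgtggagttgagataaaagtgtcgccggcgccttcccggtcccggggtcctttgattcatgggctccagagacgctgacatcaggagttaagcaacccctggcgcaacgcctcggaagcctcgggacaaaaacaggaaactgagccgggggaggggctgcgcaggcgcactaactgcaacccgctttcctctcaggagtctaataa
Ifit3, chr1:241527076-241527325, plus strand: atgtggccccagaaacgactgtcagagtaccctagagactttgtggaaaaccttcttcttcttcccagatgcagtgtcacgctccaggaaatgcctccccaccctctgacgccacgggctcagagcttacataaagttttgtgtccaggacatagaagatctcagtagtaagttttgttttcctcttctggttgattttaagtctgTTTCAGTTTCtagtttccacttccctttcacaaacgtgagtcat
Bst2, chr16:18254968-18255217, minus strand: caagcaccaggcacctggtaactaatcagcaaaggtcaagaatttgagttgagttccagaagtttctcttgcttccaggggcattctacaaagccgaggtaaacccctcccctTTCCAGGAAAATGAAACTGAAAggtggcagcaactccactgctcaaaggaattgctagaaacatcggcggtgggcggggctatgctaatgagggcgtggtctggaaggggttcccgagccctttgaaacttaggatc

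The Irf1 window held the GAS match TTCCCCGAA, starting 142 bases before the gene start, and no ISRE core. Gbp2 held TTTCACTTTC 31 bases, Tap2 GAAAGCGAAA 41 bases and Ifit3 TTTCAGTTTC 44 bases before their starts. In Bst2 a GAS match 137 bases before the start overlapped the first of 2 ISRE cores, at 131 and 125 bases, which overlap each other. Ifi35 and Ifnar1 held neither set of letters in this window, which says nothing more about them. Among the 27 measured genes with an entry in the promoter table, 13 held the ISRE core (48.1%), beside 3.29% of 27457 promoters of the same length; since the genes were listed as interferon targets, a high share follows from the list. Ifit2, the strongest faller, had no entry. Some windows counted overlap their own annotated gene, among them those of Irf7, Oas1a, Rsad2, Tapbp, B2m and Eif2ak2, which hold the core. Read against the arrays, the core stood in 5 of 12 fallen genes, 1 of 6 risen and 6 of 7 that did not pass. A GAS match was found in 6 of the 27 (22.2%), beside 7.52% of all promoters. Genes with and without these letters were thus found on each side, and a match is not shown to be a bound site.

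Receptors came first in the order of signalling. Ifnar1, the signalling chain of the type I interferon receptor, was read by 6 probe sets that share 1 target gene and are not independent. On the brightest (1395364_at) the signals were 68.1, 77.9 and 86.4 in static cultures 1 to 3 and 135.9, 195.3 and 173.5 in sheared cultures 1 to 3. All sheared signals lay above all static ones, a rise of 0.97 (95% interval 0.70 to 1.24, adjusted p = 0.00029). Probe sets 1379298_at (1.14), 1375696_at (1.00) and 1398523_a_at (0.59) rose as well, with no overlap between groups. The dimmest pair did not pass: 1398055_at went from 20.5 ± 1.82 to 26.2 ± 2.58 (SD, n = 3; 0.21, adjusted p = 0.21) and 1391677_at from 13.9 ± 2.94 to 14.8 ± 6.41 (0.03, adjusted p = 0.87). The first of these passed as risen after quantile normalization (0.36) and median centring (0.37).

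The partner chain Ifnar2, from the list of interferon ligands and receptors, also rose, from 114.3, 122.7 and 103.5 in static to 203.3, 149.6 and 155.5 in sheared cultures (0.51, adjusted p = 0.01). The call was lost without pair 3 (0.50, adjusted p = 0.057), while a second Ifnar2 probe set rose by 0.59. For interferon gamma the receptor moved otherwise. Its ligand-binding chain Ifngr1 read 440.3, 603.9 and 584.5 in static and 420.7, 428.4 and 436.0 in sheared cultures; static culture 1 lay close to the sheared signals and the fall of 0.32 (adjusted p = 0.035) was lost after median centring (-0.06, adjusted p = 0.68), without the filter, without the intensity trend and without pair 2 or pair 3. Its partner Ifngr2 did not pass on its brighter probe set (0.18, adjusted p = 0.21), though it did after median centring (0.42, adjusted p = 0.015). On the other probe set Ifngr2 rose by 0.36 (adjusted p = 0.047). That call was lost with any pair left out and without the replicate block (adjusted p = 0.05). It was also lost without the filter (adjusted p = 0.097) and with a pseudocount of 1 (adjusted p = 0.054). The ligand genes Ifnb1, at 0.5 to 1.8, and Ifng, at 0.1 to 3.7, were below the filter. Of 4 genes tested on that list, 1 rose and 0 fell in limma, with the same counts at an unadjusted p under 0.05; 3 rose after median centring and 0 without pair 3.

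Of the receptor-bound kinases, Jak1 and Jak2 fell, while Tyk2, on the list of further JAK-STAT genes, rose. Jak2 read 49.3, 55.0 and 57.6 in static and 24.5, 23.8 and 25.5 in sheared cultures, a fall of 0.78 (95% interval -1.05 to -0.51, adjusted p = 0.00086) with a tight sheared group well below every static culture. Jak1, shared by both receptors, fell from 1176 ± 43.5 to 815 ± 91.5 (SD, n = 3; -0.53, adjusted p = 0.002) on its brighter probe set. On the dimmer one it fell by 0.29 (adjusted p = 0.024), a call lost after median centring (-0.03, adjusted p = 0.85), without the intensity trend and without pair 2 or 3. Stat2, the transducer specific to type I signalling, fell from 78.1, 75.7 and 88.0 to 56.5, 33.2 and 36.3 (-0.76, adjusted p = 0.0034), with sheared culture 1 the least changed. A dim second probe set fell by 0.65 (adjusted p = 0.031), which was lost after quantile normalization, without the filter and without pair 3. That probe set passed the filter only through its brighter static group and so had to differ. Tyk2, the other kinase of the type I receptor, went from 72.6, 60.3 and 58.3 to 101.1, 77.0 and 75.9 (0.33, adjusted p = 0.036), a call lost without the replicate block (adjusted p = 0.062), without the filter and without pair 2 or 3. The list of receptors and kinases held Ifnar1, Ifngr1, Jak1, Jak2 and the transducer Stat2. Of these 5 genes 4 fell and 1 rose, where 30.2% of all genes tested fell and 27.9% rose. Ifnar2 and Tyk2, which rose, and Ifngr2, which did not pass on its brighter probe set, were on other lists. The share fallen thus depends on how the list was drawn.

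All 7 interferon regulatory factors, the transcription factors of the pathway, were called, with 5 fallen and 2 risen by gene, beside 30.2% fallen and 27.9% risen of all genes tested. Irf1, which is induced by interferon gamma and activates class I genes, read 156.7, 143.3 and 136.7 in static and 27.1, 44.2 and 38.3 in sheared cultures. The highest sheared signal was far under the lowest static one, and the fall of 1.63 had a 95% interval of -1.97 to -1.30 (adjusted p = 6.3e-05). The pairs gave -2.00, -1.40 and -1.49. Irf7, the amplifier of type I interferon production, fell from 96.1, 80.9 and 77.0 to 44.3, 40.2 and 43.9 (-0.77, adjusted p = 0.00093). Irf9, the DNA-binding partner of Stat2, fell from 108.1, 120.2 and 119.0 to 65.1, 72.2 and 70.7, by nearly the same amount in each pair (-0.61, -0.63 and -0.64; adjusted p = 0.0017). Its second probe set fell by 0.39 (adjusted p = 0.024), a call lost under both other scalings, without the filter and without pair 2 or 3.

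Smaller falls were seen for Irf3, the factor activated by viral sensors, from 194 ± 20.0 to 141 ± 38.5 (SD, n = 3; -0.44, adjusted p = 0.016), and for Irf2, an antagonist of Irf1, from 56.4 ± 7.04 to 36.7 ± 7.81 (-0.46, adjusted p = 0.036). Sheared culture 1 of Irf3 (185.4) lay within the static range of 175.9 to 215.5, and the call was lost after median centring (-0.20, adjusted p = 0.19) and without pair 2 or 3. The Irf2 call was lost after quantile normalization (-0.31, adjusted p = 0.12), median centring (-0.27, adjusted p = 0.18), without the filter and without pair 3. A further 2 Irf2 probe sets read at most 1.7 and were not tested. Against this direction, Irf5, a factor of macrophages and dendritic cells, rose from 31.4, 27.2 and 34.3 to 47.5, 66.4 and 67.3 (0.69, adjusted p = 0.0034), with no overlap. Irf8, known from myeloid cells, read 36.5, 17.6 and 21.2 in static and 36.1, 60.8 and 48.2 in sheared cultures. It was thus equal in pair 1 and higher in pairs 2 and 3 (0.66, adjusted p = 0.033), and the call was lost without the filter, without pair 2 and without pair 3.

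**Figure D3:**
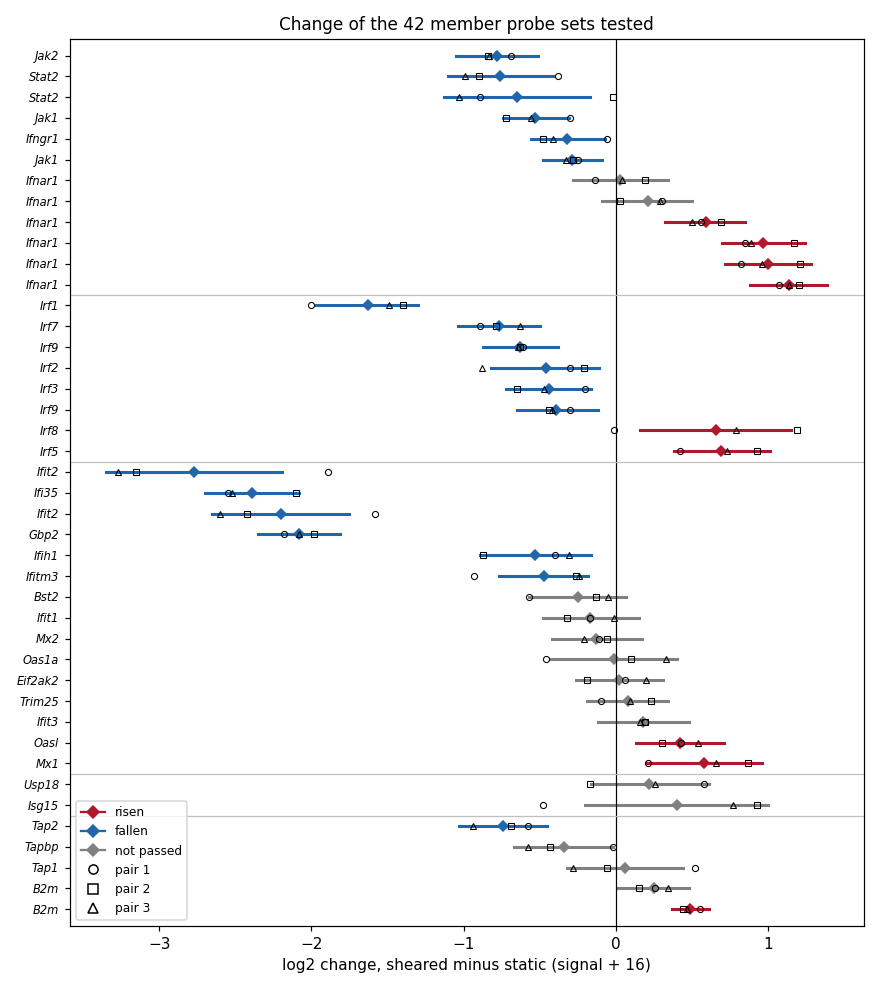
Log2 change (sheared minus static, signal + 16) of the 42 probe sets tested, as diamonds with 95% intervals coloured by call, and the difference in each pair as open symbols; blocks from top to bottom are receptors and kinases, interferon regulatory factors, sensors and effectors, the ISG15 system, and antigen presentation. Several probe sets of 1 gene carry the same name. Ifit2 fell less in pair 1 than in pairs 2 and 3, and Isg15 lay below 0 in pair 1 and above 0 in pairs 2 and 3.

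Among 14 sensor and effector genes tested 5 fell (35.7%, near the 30.2% of all genes) and 2 rose (14.3%, beside 27.9%). The falls include the 3 largest among the genes described here. Ifit2, which binds RNA and restrains translation, read 275.2, 458.0 and 465.5 in static and 62.7, 37.5 and 33.8 in sheared cultures. Every sheared signal was far below every static one, and the change was -2.77 (95% interval -3.35 to -2.19, adjusted p = 6.7e-05). Pair 1 differed by -1.89 and pairs 2 and 3 by -3.15 and -3.27, since culture 1 was the dimmest of the static and the brightest of the sheared ones. A second Ifit2 probe set fell from 169.5, 214.9 and 236.9 to 46.0, 27.2 and 25.6 (-2.20, adjusted p = 6e-05).

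Ifi35, an interferon-induced leucine zipper protein that pairs with Nmi, read 141.3, 131.7 and 139.7 in static and 10.9, 18.4 and 11.2 in sheared cultures. The static signals agreed closely and the sheared ones had a mean of 13.5, under the 16 added before taking logs, so no fold is given; the change on that scale was -2.39 (95% interval -2.70 to -2.08, adjusted p = 8e-06). Gbp2, a GTPase that attacks pathogen vacuoles, went from 131.1, 105.1 and 105.7 to 16.5, 14.7 and 12.8. Its change was -2.08 (95% interval -2.35 to -1.81, adjusted p = 7.9e-06), and the 3 pairs lay between -2.18 and -1.98. The partner Nmi, from the list of other interferon-stimulated genes, fell by 1.38 and by 1.00 on its 2 probe sets.

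Other genes of the Ifit family were dim. Ifit1 read 16.3, 11.1 and 13.3 in static and 12.8, 5.7 and 13.1 in sheared cultures, which overlap (-0.17, adjusted p = 0.34). Ifit3 read 10.2, 7.8 and 8.3 in static and 13.9, 11.2 and 11.2 in sheared cultures; its groups did not overlap, but the change of 0.18 did not pass (adjusted p = 0.27). Whether the change differed between Ifit genes was not tested.

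The double-stranded RNA sensor Ifih1 (MDA5) fell from 17.7, 16.3 and 7.9 to 9.5, 1.7 and 3.3 (-0.53, adjusted p = 0.024), with overlap between the groups, low signals throughout and a call lost without pair 2 (-0.36, adjusted p = 0.15). Ifih1 passed the filter only through its brighter static group and so had to differ. With no filter it kept its call in limma (adjusted p = 0.036). The membrane protein Ifitm3, which blocks viral fusion, was bright and read 2318.3, 2706.9 and 2777.5 in static and 1211.6, 2265.2 and 2350.1 in sheared cultures. Its fall of 0.47 (adjusted p = 0.015) came mainly from pair 1 (-0.93, against -0.26 and -0.24). The call was lost without the replicate block (adjusted p = 0.094), after median centring (-0.21, adjusted p = 0.31) and without the filter. The tetherin gene Bst2 showed the same pattern, with 46.8, 58.0 and 58.0 in static and 26.3, 51.4 and 55.5 in sheared cultures, and did not pass (-0.25, adjusted p = 0.17).

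Mx1, a dynamin-like antiviral GTPase, rose from 5.0, 4.0 and 6.6 to 8.3, 20.5 and 19.6 (0.58, adjusted p = 0.018), and Oasl, a relative of the oligoadenylate synthetases, from 16.8, 18.7 and 12.5 to 28.1, 26.7 and 25.3 (0.42, adjusted p = 0.023). Neither overlapped between groups, but both calls were lost without pair 2 and without pair 3, and that of Oasl also without the filter. Mx1 passed the filter only through its brighter sheared group and so had to differ. With no filter it kept its call in limma (adjusted p = 0.035). Mx2 (-0.13, adjusted p = 0.44), the oligoadenylate synthetase Oas1a (-0.01, adjusted p = 0.96), the RNA-dependent kinase Eif2ak2 (0.02, adjusted p = 0.88) and the ubiquitin ligase Trim25 (0.08, adjusted p = 0.61) did not pass. Of these, Eif2ak2 at 61.0 to 88.7 and Trim25 at 130.5 to 166.6 over the 6 arrays were well above the dim end. Their intervals of -0.26 to 0.31 and -0.19 to 0.34 hold changes far smaller than that of Ifit2. Viperin, Rsad2, read 2.2 to 10.6 and was below the filter.

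The ubiquitin-like modifier Isg15 and the protease Usp18 that removes it did not pass, so that 0 of 2 genes fell or rose in limma, and 0 also at an unadjusted p under 0.05. Isg15 read 34.8, 10.5 and 13.0 in static and 20.3, 34.4 and 33.3 in sheared cultures. It was lower under shear in pair 1 and higher in pairs 2 and 3 (0.40, adjusted p = 0.23), and without pair 1 it passed as risen (0.85, adjusted p = 0.00012). Usp18 read 16.5, 16.7 and 12.1 in static and 32.6, 13.1 and 17.6 in sheared cultures (0.22, adjusted p = 0.29). The conjugating enzyme of the same system, Ube2l6, which is on the list of other interferon-stimulated genes, fell from 84.1, 103.0 and 105.8 to 44.4, 43.1 and 42.6 (-0.93, adjusted p = 0.00043). On that list Uba7 (-0.06, adjusted p = 0.74, brightest probe set) and Herc6 (-0.10, adjusted p = 0.57), also enzymes of this system, did not pass.

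**Figure D4:**
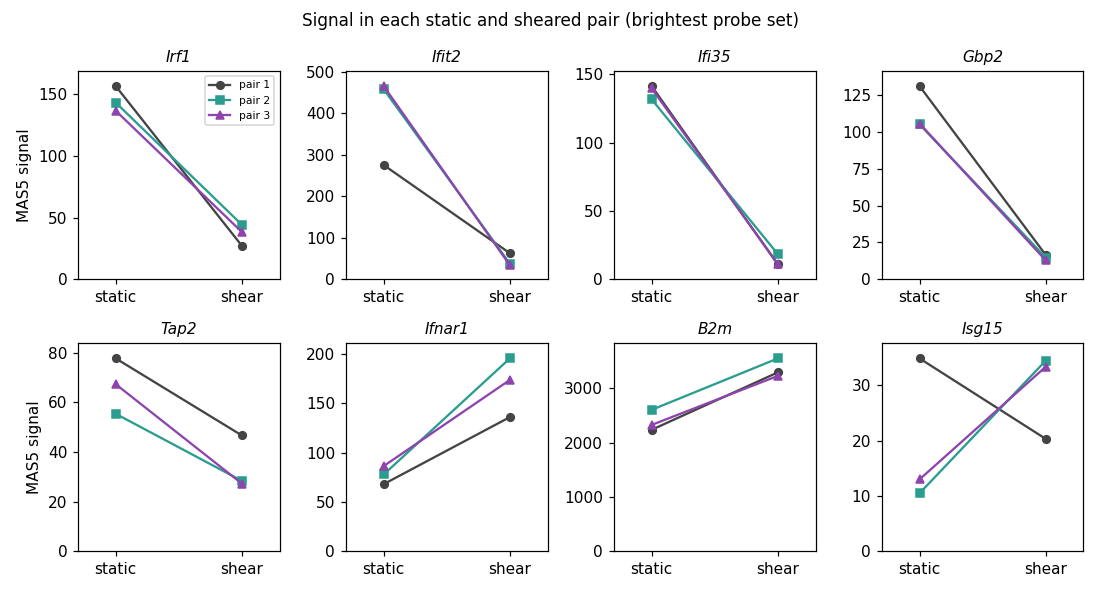
MAS5 signal (linear axis from 0) of 8 genes in each static and sheared pair, with lines joining the cultures of a pair. The lines of Irf1, Ifit2, Ifi35, Gbp2 and Tap2 fall and those of Ifnar1 and B2m rise in all 3 pairs, whereas Isg15 falls in pair 1 and rises in pairs 2 and 3.

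Antigen presentation genes split. B2m, the invariant light chain of MHC class I, rose on a probe set that may read several transcripts (1367595_s_at) from 2237.4, 2604.8 and 2326.8 in static to 3292.1, 3549.3 and 3227.7 in sheared cultures. Every sheared signal exceeded every static one, and the change was 0.49 (95% interval 0.37 to 0.61, adjusted p = 0.00018). A dimmer probe set went from 173.5, 195.0 and 179.2 to 210.6, 218.5 and 230.8 and did not pass (0.25, adjusted p = 0.071); it passed without the replicate block (adjusted p = 0.049), after median centring (0.50, adjusted p = 0.005) and without pair 1.

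The transporter associated with antigen processing pumps peptides into the endoplasmic reticulum as a dimer of Tap1 and Tap2. Tap2 fell from 77.7, 55.4 and 67.3 to 46.7, 28.4 and 27.3, with no overlap (-0.74, 95% interval -1.03 to -0.45, adjusted p = 0.0017). Tap1 read 64.1, 68.1 and 78.7 in static and 98.7, 64.7 and 62.1 in sheared cultures and did not pass (0.06, interval -0.32 to 0.44, adjusted p = 0.78), with pair 1 up (0.52) and pair 3 down (-0.28). A difference between the subunits was not tested. Tapasin, Tapbp, which bridges the transporter to class I molecules, went from 50.8, 58.0 and 58.2 to 49.8, 39.0 and 33.6. Its groups did not overlap, but the change did not pass (-0.34, adjusted p = 0.074), although without pair 1 it did (-0.50, adjusted p = 0.0026). The class I transactivator Nlrc5 read 1.2 to 5.8 and the class II invariant chain Cd74 1.4 to 6.6 over the 6 arrays, both below the filter.

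The rest of the pathway was counted from lists of other genes, by the brightest probe set of each gene. Of 41 other interferon-stimulated genes tested, 27 fell and 3 rose, where 30.2% and 27.9% of all genes tested did; the median was -0.51, against -0.054 for all genes. Of the 27, Rtp4 (21.4 static and 6.3 sheared in group means) passed the filter only through its brighter static group and so had to differ. The fallen count was 19 after median centring, with 6 risen, and 23 without pair 2 or without pair 3. Among them Slfn4, a Schlafen family gene, fell from 287.3, 195.4 and 179.7 to 51.2, 56.7 and 52.0 (-1.75, adjusted p = 5.7e-05). The ADP-ribosyltransferase family gene Parp9 fell from 106.8, 100.4 and 89.6 to 14.9, 22.6 and 20.2 (-1.71, adjusted p = 3.5e-05). Pml, the scaffold of nuclear bodies, fell on both probe sets (-1.49 and -1.54). The chemokine Cxcl10, a classical target of both interferon types, was dim and fell from 28.4, 18.7 and 14.4 to 13.0, 10.4 and 7.1 (-0.47, adjusted p = 0.018), with a call lost under both other scalings and without pair 1 or pair 3.

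All 5 immunoproteasome genes, which supply class I peptides, fell, where 30.2% of all genes tested did. Their median was -0.75, and 5 fell in each of the 11 alternative settings. Psmb9 read 174.4, 154.2 and 167.3 in static and 58.3, 56.7 and 56.3 in sheared cultures (-1.31, adjusted p = 4.6e-05). Psmb8 fell by 0.97, Psmb10 by 0.75 and the activator subunit Psme1 by 0.74, although a dim second Psme1 probe set did not pass (-0.25, adjusted p = 0.19). Of 7 partners in class I peptide loading, 3 fell (42.9%) and 2 rose (28.6%), beside 30.2% and 27.9% of all genes (median -0.22). After quantile normalization or without pair 1, 5 fell. The risen count was 1 after quantile normalization, without the filter, with no intensity trend, and with pair 2 or pair 3 left out. With the 50% filter 2 of 6 fell, and after median centring the median was 0.05. The trimming peptidases Erap1 (-0.76), Npepps (-0.66) and Lnpep (-0.54) fell, and the oligopeptidase Thop1 rose (0.62).

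MHC class I heavy chains and related genes moved both ways. Of 14 tested, 6 rose (42.9%, beside 27.9% of all genes) and 3 fell (21.4%, beside 30.2%). Their median was 0.18, and 3 rose without pair 2 and 4 without pair 3. RT1-CE12 (1388236_x_at) rose from 127.9, 149.9 and 154.7 to 217.0, 369.4 and 398.3 (1.06, adjusted p = 0.00038), and the neonatal Fc receptor Fcgrt by 1.02. RT1-M3-1 (-1.10) and RT1-N3 (-0.93) fell; 2 genes fell after either other scaling, without the filter or with any pair left out. The rat RT1 class I genes are near-identical copies whose probes can cross-hybridise, so a value cannot be assigned to 1 of them with certainty.

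Of 17 further JAK-STAT transducers and inhibitors tested 6 fell (35.3%, near the 30.2% of all genes) and 2 rose (11.8%, beside 27.9%). Their median was -0.18. After median centring 4 fell and 5 rose, and 1 rose without pair 2 or pair 3. Ptpn2, a phosphatase that dephosphorylates Jak1, rose from 194.6, 198.7 and 179.2 to 390.1, 556.8 and 531.2 (1.28, adjusted p = 0.0001), though a dim probe set did not pass (0.10, adjusted p = 0.57). Socs3, a feedback inhibitor of cytokine receptors, fell from 36.4, 36.6 and 33.2 to 11.8, 18.6 and 18.7 (-0.67, adjusted p = 0.0037), and Socs1 was below the filter at 4.2 or less. Pias1, a STAT inhibitor, and Irf2bpl both fell by 0.87, although another probe set of each did not pass (0.06 and -0.31). Stat5b fell by 0.62. Stat3 did not pass on its brighter probe set (0.12, adjusted p = 0.34; risen after median centring at 0.39 and without pair 1 at 0.24) and rose by 0.43 on the other, a call lost without pair 2 or pair 3.

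Nucleic acid sensing genes and Toll-like receptors had 3 risen (50.0%) and 0 fallen of 6 tested in limma, beside 27.9% and 30.2% of all genes. Their median was 0.28. The counts were the same at an unadjusted p under 0.05, and 1 fell without pair 1. The median was -0.16 without the filter and -0.15 without pair 3, when dimmer genes enter. The lipopolysaccharide receptor Tlr4 rose from 48.7, 61.7 and 61.1 to 160.0, 196.1 and 163.2 (1.37, adjusted p = 4.5e-05). Tbk1, the kinase that activates Irf3, rose from 226.8, 195.3 and 203.4 to 480.7, 620.1 and 642.5 (1.40, adjusted p = 7.7e-05). Mavs, the mitochondrial adaptor of RNA sensors, rose from 50.2, 59.4 and 61.7 to 103.0, 110.9 and 106.2 (0.75, adjusted p = 0.00086), while its second probe set did not pass (-0.13, adjusted p = 0.55).

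**Figure D5:**
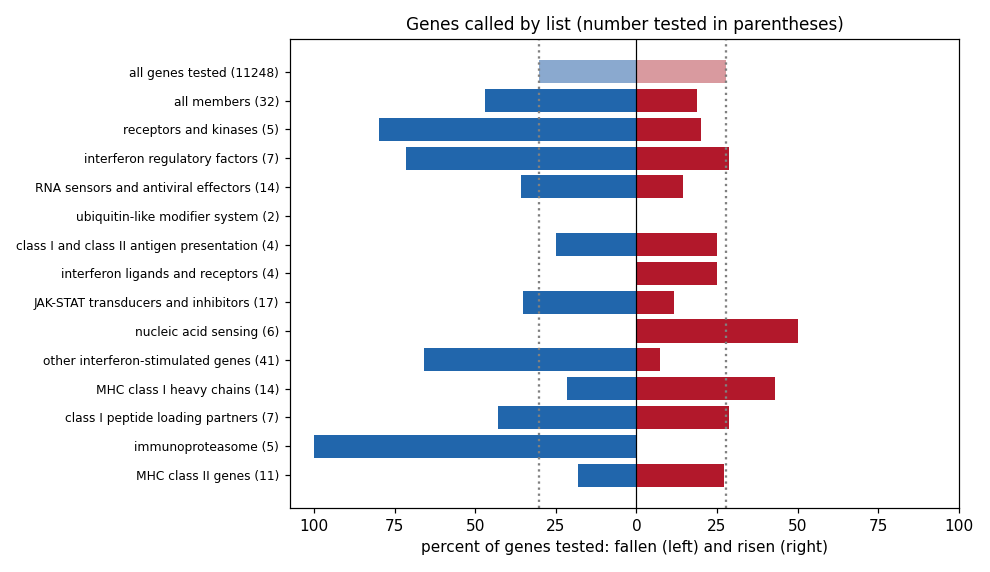
Percent of genes tested that fell (blue, left of 0) or rose (red, right of 0) in each list, by brightest probe set, with the number tested in parentheses; the pale top bar and dotted lines give the shares over all genes tested, 30.2% and 27.9%. Past the line for fallen genes are the immunoproteasome (100%), receptors and kinases (80.0%), interferon regulatory factors (71.4%) and other interferon-stimulated genes (65.9%). So are all genes described here (46.9%), peptide loading (42.9%), and, near the line, sensors and effectors (35.7%) and JAK-STAT genes (35.3%). The remaining lists stay short of it, and lists of under 10 genes rest on few counts. The list of receptors and kinases holds Stat2 but not Ifnar2, Ifngr2 or Tyk2, which are on other lists.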

How the data were processed

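RNA of rat smooth muscle cell cultures, 3 static and 3 sheared, was hybridised to 6 Affymetrix arrays. Per the submitters' processing notes, the authors made the deposited intensity values with MAS5; version and settings are not given in the sources used here. Deposited intensities are linear, 1 per probe set, with a 2% trimmed mean of 100 on each array and 3 to 10 exact zeros; detection calls were not used here, and the number of arrays limits precision.

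Of 31099 probe sets 57 were controls. Genes were named from the 20826 probe sets with 1 symbol in the platform annotation; 20758 matched a RefSeq gene table of GRCr8 by identifier. After adding 16 and taking log2, the 30% with the lowest mean were left out (limit 4.50), and the groups were compared by limma (version 3.58.1, in R 4.3.3; lmFit, eBayes with an intensity trend), with pairing number as a fixed block, 2 residual degrees of freedom and two-sided p-values. The pairing comes from the labels; deviations from group means correlated by 0.0712, 0.0648 and 0.0626 within pairs, each higher than with other numbers. Summed marker signals were compared by exact permutation. The fit was also run on simulated arrays with no pair effect and few changed probe sets. These settings differ from the data, so that run does not show the error rates here. Figures were drawn with matplotlib 3.10.9.

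The members, gene lists (other interferon-stimulated genes, ligands and receptors, JAK-STAT, nucleic acid sensing, class I heavy chains, peptide loading, immunoproteasome, class II, and smooth muscle, leukocyte, endothelial and fibroblast markers) and tests were chosen with earlier results of these data known. The rule for named genes took every member and, of each pathway list, the 4 passing genes with the smallest p. It also took Stat3, Socs1, Socs3, Ciita, Psmb8, Psmb9 and Cxcl10 whatever their values. Genes named outside it (Ifnb1, Ifng, Ifngr2, Tyk2, Ube2l6, Uba7, Herc6, Rtp4, Canx, RT1 class II genes, markers) were chosen after their values were seen. Alternatives were a fit without the replicate block, median centring, quantile normalization, a 50% filter or none, pseudocounts of 64 and 1, no intensity trend, and each pair left out; their use on the other interferon-stimulated genes was added after seeing the data.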

Additional observations from a re-analysis of the deposited data

How the results depend on the processing

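Of the 28 called probe sets of interferon and antigen presentation genes, 17 (11 fallen, 6 risen) kept direction and call in each of the 11 alternatives that tested them, and none of the 42 tested that was called in either fit changed direction; of the 14 that did not pass, 10 passed in no alternative. Fallen and risen counts were 18 and 10 without the replicate block, which lost Ifitm3 and gained the dim B2m probe set, 16 and 10 after quantile normalization, 13 and 11 after median centring, 14 and 7 without the filter, and 13 to 20 and 6 to 11 with 1 pair left out. The median change of those tested, -0.21, was -0.08 after quantile normalization, -0.04 after median centring, -0.08 without the filter, -0.32 with a 50% filter, -0.10 and -0.31 with pseudocounts of 64 and 1, and -0.22 to -0.17 with 1 pair left out. The median of all probe sets moved by 0.088 after quantile normalization and by 0.168 after median centring; filters and a left-out pair change which probe sets or cultures enter. The cause was not tested further. The counts of all probe sets changed and of other interferon-stimulated genes fallen (19 to 28) stayed within 1.5 times. Fits without a pair have 1 residual degree of freedom. Without detection calls no signal was called present or absent, which limits most what the arrays show at low signals, as for the sheared levels of Ifi35 and Gbp2 and for Mx1, Ifit1, Ifit3, Oas1a, Rsad2, Nlrc5 and Cd74.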

Other observations

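Classical MHC class II chains, which professional antigen-presenting cells use, were dim in both groups. RT1-Ba, RT1-Bb, RT1-Da and RT1-Db1 had group means of 2.57 to 8.17 on their brightest probe sets, and the class II transactivator Ciita read 6.6 to 13.9 on its brighter probe set (-0.09, adjusted p = 0.59). A second Ciita probe set fell by 0.39 (adjusted p = 0.039), a call lost under both other scalings, with a pseudocount of 1 (adjusted p = 0.05) and without pair 2 or 3. The class II loading chain RT1-DMa was brighter and fell from 31.0, 39.6 and 38.8 to 23.9, 27.4 and 21.8 (-0.38, adjusted p = 0.035), a call lost under both other scalings, without the filter and without pair 2 or 3; its partner RT1-DMb did not pass (-0.39, adjusted p = 0.073), but did without pair 1. The lysosomal proteases Ctsl (0.41; 0.97 on a second probe set) and Lgmn (0.59) and the class II promoter factor subunit Rfxap (0.81) rose, while Rfx5, another subunit, fell by 0.37, a call lost after median centring (-0.12, adjusted p = 0.43) and without pair 2 or 3. Of 11 genes tested on that list 3 rose (27.3%) and 2 fell (18.2%), beside 27.9% and 30.2% of all genes (median -0.09). In limma 0 fell after median centring or without pair 2 or 3. The median was above 0 after quantile normalization (0.02) and median centring (0.01), with the 50% filter (0.27) and without pair 2 (0.04).

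Markers of other cells gave these values. Endothelial markers summed to 237 to 259 on static and 218 to 236 on sheared arrays (exact permutation p = 0.1), with 8 of 13 under a signal of 16 on every array. The sums of fibroblast markers overlapped between groups (exact permutation p = 0.5), with Col14a1 fallen by 1.35 and Dcn risen by 0.39. Of 10 smooth muscle markers 7 fell and 0 rose in limma, also at an unadjusted p under 0.05, where 30.2% of all genes tested fell and 27.9% rose in limma. Their part in the results was not tested.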
